A study of Homo sapiens with 8 samples.

Results

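The 43 genes described here take part in the interferon response, in the sensing of RNA and in antigen presentation by MHC class I. They were chosen by name from the 57773 genes of the count tables, and all 43 were found. RNA-seq of H9, an established human embryonic stem cell (hESC) line grown in mTesR1 medium, covered 4 conditions with 2 replicates each. WT cells were untreated and carried CHD7 with an HA tag, given in the labels as wild type (CHD7-HA). HERVH knockdown cells had the same genotype and were treated with LNA-GapmeRs, antisense oligonucleotides that lead RNase H to a transcript, here RNA of the endogenous retrovirus family HERVH, for 24 h. CHD7 knockout cells were CHD7 -/- and HERVH element deleted cells lacked a single HERVH copy on chromosome 2, and both were untreated. CHD7 is a chromatin remodeler. According to the methods of the study, its edited lines were grown from colonies picked after CRISPR-Cas9 editing and puromycin selection, and the labels do not name the clone or the mutation behind a library. The LNA-GapmeRs were delivered with a lipid reagent. Libraries of cells that received a control LNA-GapmeR were not analysed here, so the delivery of an oligonucleotide and the loss of HERVH RNA cannot be told apart.

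Cells detect viral RNA with the helicases RIGI (RIG-I, formerly DDX58) and IFIH1 (MDA5), which signal through MAVS, and with TLR3 in endosomes. The transcription factors IRF3 and IRF7 then switch on interferon genes. Secreted interferon binds its receptor, JAK kinases phosphorylate STAT proteins, and STAT2 joins IRF9 in a complex that binds the interferon-stimulated response element (ISRE) of many antiviral genes and of genes for MHC class I. Pluripotent stem cells are known for a weak interferon response and for the steady expression of some interferon-stimulated genes, among them the IFITM genes.

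The ISRE is the sequence that many of these genes share, so upstream windows are shown for genes at high, low and undetected levels. They are RefSeq promoter sequences on GRCh38.p14, each 60 bases long, read 5′ to 3′ on the strand of the gene, and the capitals mark matches to the ISRE core GAAANNGAAA on either strand, where overlapping matches run together. ISG15, IFITM3, B2M and BST2 were expressed in every library, OAS3 and IFIT1 were low, and IFI44L had no count in any library. The windows lie at chr1:1013362-1013421 (plus strand) for ISG15, chr11:320870-320929 (minus) for IFITM3, chr15:44711351-44711410 (plus) for B2M, chr19:17405723-17405782 (minus) for BST2, chr12:112938306-112938365 (plus) for OAS3, chr10:89392488-89392547 (plus) for IFIT1 and chr1:78620259-78620318 (plus) for IFI44L.
ISG15: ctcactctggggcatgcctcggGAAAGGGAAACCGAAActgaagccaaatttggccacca
IFITM3: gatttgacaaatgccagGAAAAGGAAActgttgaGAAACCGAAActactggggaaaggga
B2M: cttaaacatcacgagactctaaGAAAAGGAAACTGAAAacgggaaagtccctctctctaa
BST2: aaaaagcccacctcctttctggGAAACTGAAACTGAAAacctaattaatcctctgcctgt
OAS3: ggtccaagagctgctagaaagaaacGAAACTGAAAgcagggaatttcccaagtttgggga
IFIT1: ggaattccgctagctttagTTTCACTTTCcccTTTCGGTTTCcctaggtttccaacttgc
IFI44L: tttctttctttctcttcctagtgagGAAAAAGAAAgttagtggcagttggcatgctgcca

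RefSeq promoters were matched by symbol for 33 of the 43 genes. The ISRE core occurred within 250 bases upstream of 19 of these 33 (57.6%), against 3.71% of 27305 genes. It was found for 11 of 23 constitutively expressed genes, 6 of 8 low genes and both genes at the floor, in the classes set out below, so genes with the motif stood at each level. The gamma interferon activation site GAS, searched as TTCNNNGAA, occurred upstream of 11 of the 33 genes (33.3%) and of 8.09% of all genes. The pattern can overlap the ISRE core and was likewise searched on both strands. The upstream windows of the constitutive genes held a median of 14 CpG dinucleotides (0 to 29), those of the low genes 8.5 (1 to 36) and those of both floor genes 0, beside a median of 11 for all genes. These matches describe letters in a window and no binding was measured.

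**Figure D1:**
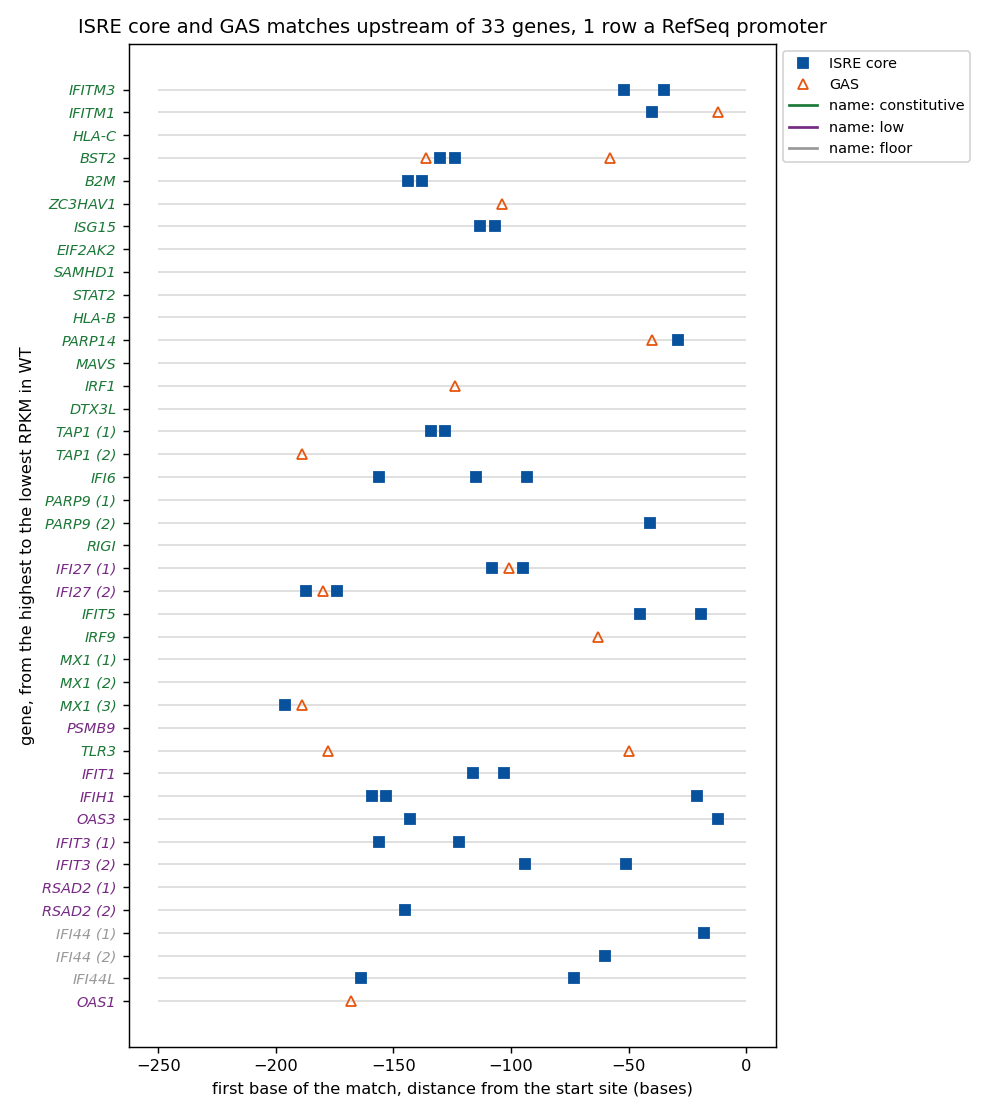
Matches to the ISRE core (squares) and to GAS (triangles) in the 250 bases upstream of the start site of 33 genes, with 1 row for each of 41 RefSeq promoters, ordered by RPKM in WT cells. The x axis gives the distance from the start site in bases and the colour of a name the level class. Squares occur from the top of the list (IFITM3) to genes without counts (IFI44 and IFI44L), and 19 genes have at least 1 square.

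The oligonucleotides are of interest here because they are nucleic acid brought into the cells. Whether they are ligands of any sensor named here was not tested. The study lists 3 LNA-GapmeRs against HERVH, each of 16 bases, given here in lower case without their chemical modifications. Which of them entered the 2 knockdown libraries is not given in the labels.
SHHERVH_3: ggaagatttgggacga
SHHERVH_4: attgggacctagctcg
SHHERVH_12: atgtggagtgggtagc

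Between 14802049 and 23156445 reads were counted on genes in a library. A count of 3 corresponded to 0.128 to 0.218 CPM (counts per 1000000, libraries scaled by TMM), which sets the floor of detection, and it covers counting error only. CHD7 stood at 651 and 650 CPM in WT and at 197 CPM in both CHD7 knockout libraries, lower by log2 -1.72 (FDR = 2.25e-05). FDR denotes here the Benjamini-Hochberg adjusted p of edgeR's quasi-likelihood test, fitted on all 8 libraries and adjusted over 23474 genes. The 8 pluripotency markers examined, among them POU5F1, SOX2 and NANOG, were all expressed, with sums of 6648 to 7811 CPM, and none passed FDR below 0.05 in a comparison with WT. The 2 knockdown libraries stood further apart (median SD of 0.25 log2 CPM over 12704 genes) than the replicates of the other conditions (0.08 to 0.13). Counts were concentrated most in knockdown replicate 2, whose 10 highest genes held 8.87% of them (4.09% to 5.08% elsewhere). The labels do not say whether replicates were separate cultures, so the p-values measure the spread between these samples, which may be technical.

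Most of the genes were expressed without any treatment. Constitutive was taken to mean at least 1 CPM in each of the 8 libraries, floor at most 3 counts in each of them, and low all others. By this rule 29 of the 43 genes were constitutive, 10 were low and 4 were at the floor. Transcription factors, IFITM genes and the PARP9, DTX3L and PARP14 group were constitutive without exception, whereas none of the 4 OAS genes was. The filter on low counts left 37 genes for testing, among them all constitutive genes and 8 of the low ones.

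**Figure D2:**
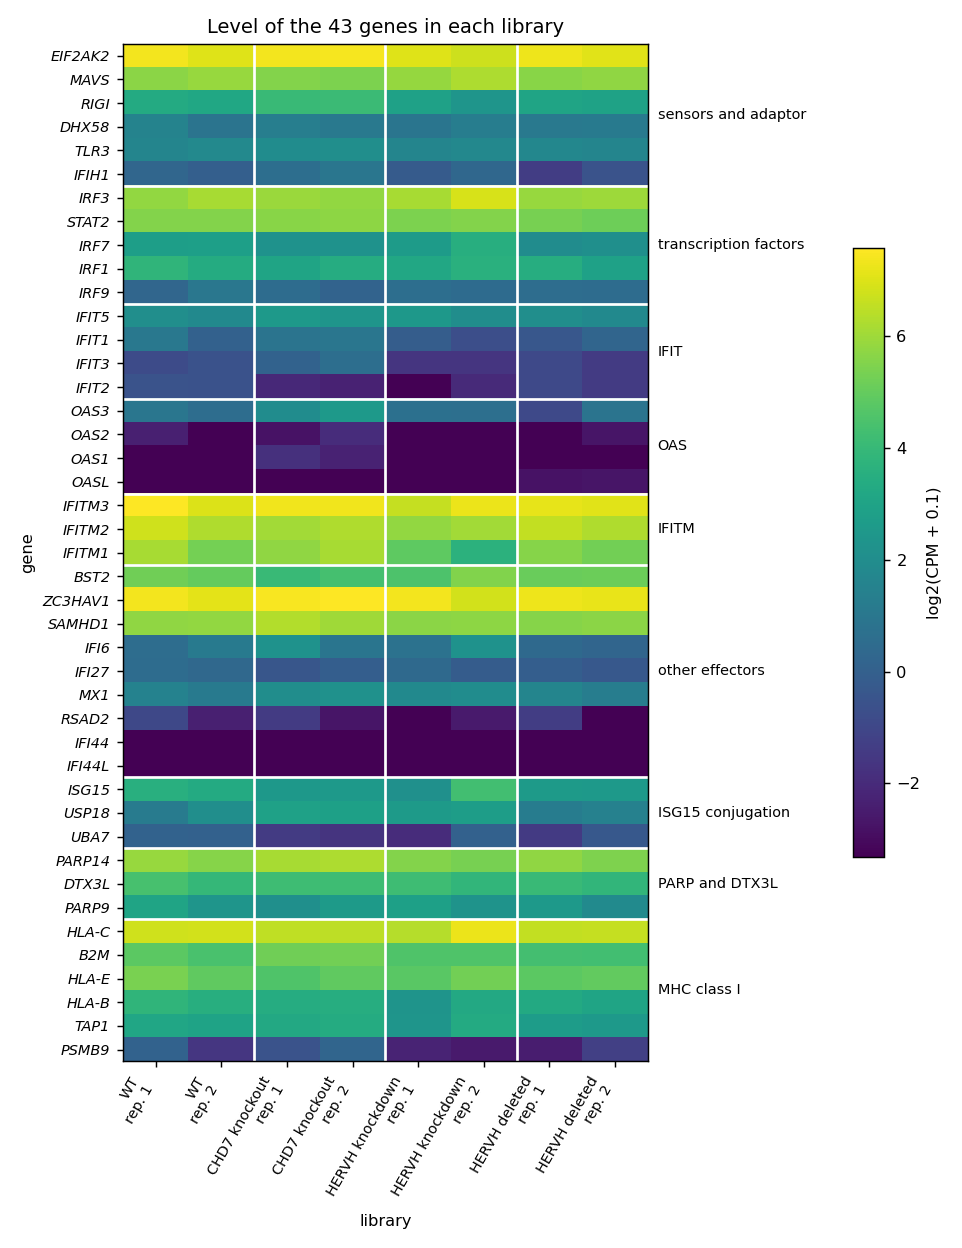
Level of each of the 43 genes in each of the 8 libraries as log2(CPM + 0.1), grouped by role, with genes of a group ordered by RPKM in WT cells. Dark rows mark genes near or at the floor. IFI44, IFI44L, OAS1, OAS2 and OASL are dark in nearly all columns, and IFITM3, HLA-C, EIF2AK2 and ZC3HAV1 are bright in all of them.

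The IFITM genes, which encode membrane proteins that hinder the entry of viruses, had the highest levels of the 43 per transcript length. Per kilobase of the canonical transcript (RPKM), the mean WT level was 261 for IFITM3, 94.6 for IFITM2 and 83.2 for IFITM1, which placed IFITM3 above 99.3% of 19123 protein coding genes. IFITM3 stood at 191 and 128 CPM in the WT libraries, IFITM2 at 112 and 78.3 CPM and IFITM1 at 71.9 and 39.3 CPM, so that WT replicate 1 was higher in each case. These genes are neighbours with similar sequences on chromosome 11, and reads that align to more than a single place were not counted on them.

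All 5 transcription factors were constitutive. IRF3, which is activated directly by the sensing pathway, led with a WT RPKM of 39.6 and 55.5 and 70.7 CPM in the WT libraries. STAT2, the partner of IRF9, followed with a WT RPKM of 10.6 and 36.4 to 52.3 CPM across the 8 libraries. IRF7, which amplifies the production of interferon, had a WT RPKM of 3.56, IRF1 of 3.43 and IRF9 of 0.93. IRF9 was constitutive by a narrow margin, with a lowest library of 1.02 CPM. Exons of IRF3 overlap those of BCL2L12 on the opposite strand over 734 bases, and those of IRF9 overlap another annotated gene on the same strand over 1544 bases. The study prepared strand-specific libraries. The strand setting of the counting is not given in the sources used here, so reads of such partners may be mixed or left out.

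Of the sensors, EIF2AK2 (PKR), a kinase that halts translation on binding double-stranded RNA, had the highest level, with a WT RPKM of 14.9 and 106 to 173 CPM across libraries. MAVS, the adaptor on mitochondria, had a WT RPKM of 4.75 and RIGI of 2.05. DHX58 (LGP2), a helicase that modulates both other helicases, stood at 0.88 RPKM and TLR3 at 0.53 RPKM, and both exceeded 1 CPM in each library. IFIH1 was the sensor in the low class, with 7 to 34 counts in a library.

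Effectors ranged from expressed genes to genes without counts. BST2 (tetherin), which holds budding virus at the membrane, had a WT RPKM of 34.4. ZC3HAV1 (ZAP), which binds CpG-rich viral RNA, had 21.3, and SAMHD1, which depletes nucleotides, had 11.9. IFI6 (2.15 RPKM) and MX1 (0.89 RPKM), a GTPase against influenza virus, were constitutive but close to the limit, with a lowest library of 1.08 and 2.15 CPM. Exons of MX1 overlap TMPRSS2 over 562 bases and those of SAMHD1 overlap TLDC2 over 1068 bases, both on the opposite strand. IFI27 was low, with 11 to 29 counts in a library. Its WT RPKM of 1.75 was above that of MX1, whose canonical transcript is longer (2776 against 716 bases). RSAD2 (viperin) was low, with 9 and 2 counts in WT and 0 to 7 counts in the other libraries, and was not tested. IFI44 and IFI44L, which lie next to each other on chromosome 1, had 0 counts in all 8 libraries, which allows levels of up to 0.128 to 0.218 CPM.

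The enzymes OAS1, OAS2 and OAS3 make the second messenger that activates RNase L. OAS3 was low, with 40 and 30 counts in WT, whereas OAS2 had at most 3 counts and OASL at most 1 count in a library. OAS1 had 4 and 2 counts in CHD7 knockout cells and 0 counts in the other 6 libraries, so it left the floor class by a single count and gives no fold. Of the IFIT genes, whose proteins bind foreign RNA ends, IFIT5 was constitutive (0.94 RPKM). IFIT1, IFIT3 and IFIT2 were low, with a WT RPKM of 0.33, 0.21 and 0.17.

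ISG15, a ubiquitin-like protein that is joined to other proteins, had a WT RPKM of 17.1 and was constitutive, as was USP18, the protease that removes it and restrains interferon signalling (1.68 RPKM). UBA7, the enzyme that activates ISG15 for conjugation, was low, with 3 to 21 counts. PARP14, PARP9 and DTX3L, ADP-ribosyltransferases and the ubiquitin ligase partner of PARP9, had a WT RPKM of 7.07, 2.15 and 3.13. PARP9 and DTX3L overlap by 139 exonic bases on opposite strands.

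MHC class I genes were constitutive with a single exception. HLA-C had a WT RPKM of 72.7, the light chain B2M of 26.5, HLA-E of 14.2 and HLA-B of 8.15. HLA genes are close in sequence, and reads shared between them were not counted on any, so their relative levels are uncertain. TAP1, which carries peptides into the endoplasmic reticulum, had a WT RPKM of 3.07. PSMB9, an immunoproteasome subunit, was low, with 1 to 21 counts in a library, and its exons overlap PSMB8 on the opposite strand over 139 bases.

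The comparison with WT asked whether loss of CHD7, knockdown of HERVH or deletion of the HERVH element altered these levels. No member passed FDR below 0.05 in any of the 3 comparisons, and hence none passed FDR below 0.01 with at least 2-fold change, the limits of the study for a DEG. Over all genes tested, 1.81% passed FDR below 0.05 in CHD7 knockout, 2.15% in HERVH knockdown and 0.0724% in HERVH element deleted cells. With the stricter limits these shares were 0.571%, 0.217% and 0.0298%. At an unadjusted p below 0.05 in the same test, 10, 8 and 1 of 37 members passed, beside 10.9%, 19.0% and 2.63% of all genes. DESeq2 called 3, 1 and 0 members at an adjusted p below 0.05, and the other fits of all replicates up to 6, 4 and 0. The shares of all genes in those fits are not given, so these counts are not read as results about the members. In bulk RNA a lower level of a gene in each cell and fewer cells that express it cannot be told apart. The 95% interval of the fold change lay within 2-fold in either direction for 19, 19 and 20 of the 37 members, and for the others a 2-fold change cannot be set aside at this depth and number of replicates.

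**Figure D3:**
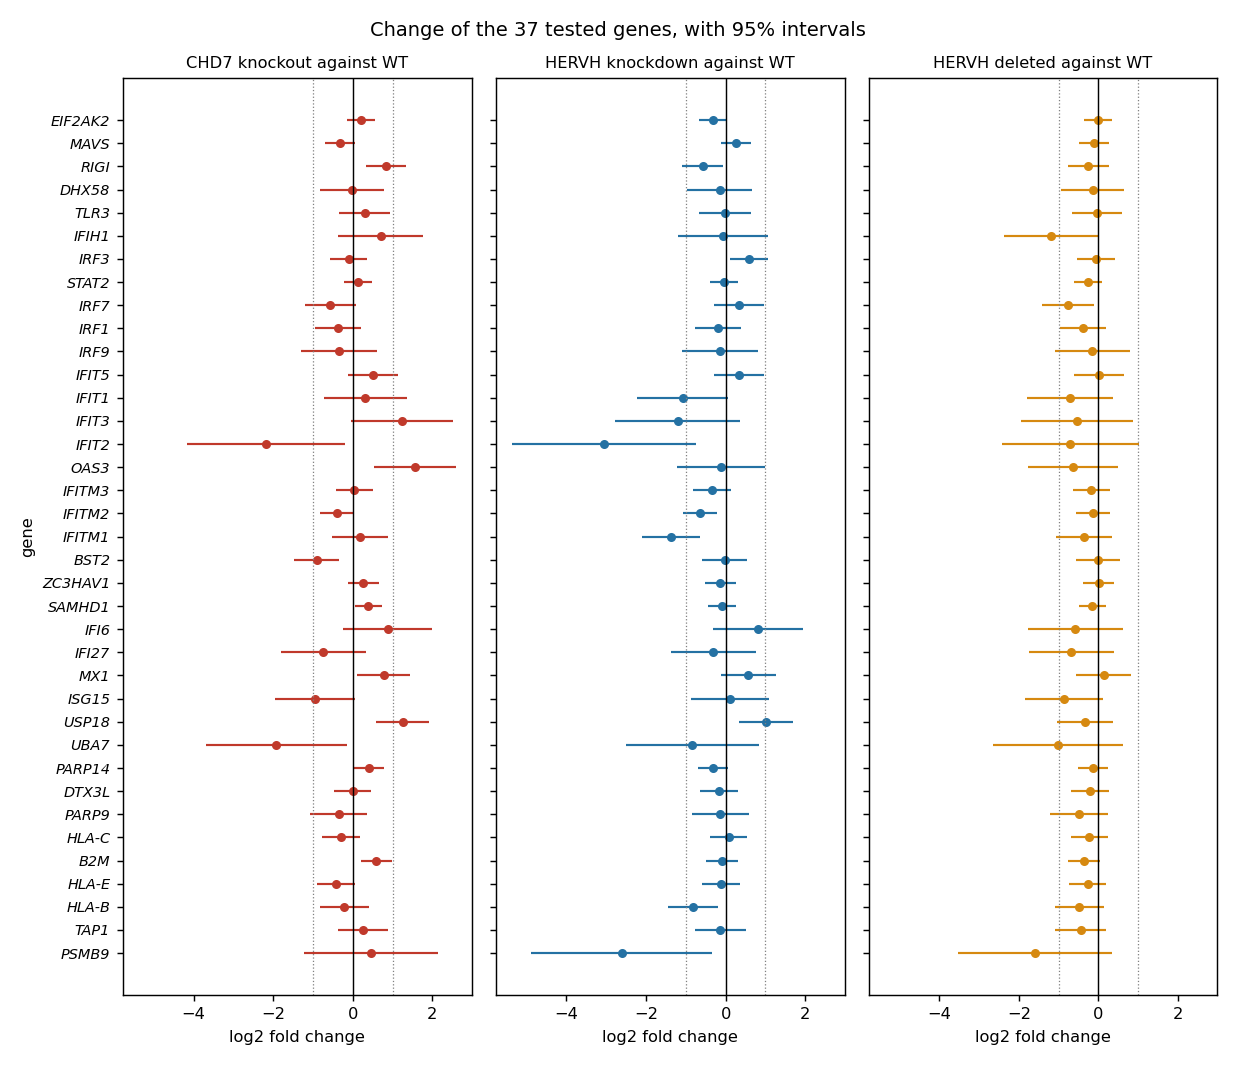
Log2 fold change of each of the 37 tested genes against WT (points) with its 95% interval (lines) from the edgeR fit of all 8 libraries, with 1 panel for each altered condition. Dotted lines mark a 2-fold change. USP18, RIGI and OAS3 lie to the right in CHD7 knockout cells, IFITM1 lies to the left in HERVH knockdown cells, and 34 of 37 points lie left of 0 in HERVH element deleted cells.

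In CHD7 knockout cells 20 members had a positive and 17 a negative log2 fold change, with a median of 0.13 against -0.01 for all genes. Without WT replicate 2 the median was -0.12 and without WT replicate 1 it was 0.35, so its sign rested on a single WT library. Members with the lowest p came from both the sensing and the feedback arm. USP18 (chr22:18632885-18660164 on GRCh37) stood at 7.53 and 7.32 CPM, above 2.22 and 4.02 CPM in WT (log2 fold change 1.25 ± 0.31 SE, FDR = 0.0632). RIGI (chr9:32455300-32526206) stood at 16.7 and 17.2 CPM, above 9.93 and 9.03 CPM (0.84 ± 0.23, FDR = 0.105). The groups did not overlap for either gene, and yet neither difference passed the threshold after adjustment.

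OAS3 (chr12:113375856-113414265) had 3.88 and 5.76 CPM in CHD7 knockout and 1.85 and 1.40 CPM in WT cells (1.56 ± 0.48, FDR = 0.145). B2M (chr15:45003556-45011049) had 36.97 and 38.6 CPM, beside 28.2 and 21.8 CPM in WT (0.60 ± 0.19, FDR = 0.153). BST2 went the other way, with 16.5 and 20.4 CPM against 36.99 and 31.9 CPM (-0.90 ± 0.26, FDR = 0.12). ISG15, a classical target of interferon, was likewise low, with 5.50 and 5.76 CPM against 11.6 and 10.1 CPM in WT (-0.95 ± 0.46, FDR = 0.492). None of these differences passed the threshold in the quasi-likelihood fit of all libraries. Other fits of all replicates called 6 members: USP18, BST2, RIGI, OAS3, B2M and ISG15, the last 2 only where the 4 libraries compared were fitted alone (FDR = 0.0382 and 0.0135 in edgeR). Of IFIT2 there were 3 and 2 counts in CHD7 knockout and 13 and 12 counts in WT cells (FDR = 0.385).

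In HERVH knockdown cells 9 members had a positive and 28 a negative log2 fold change, with a median of -0.13 against 0.04 for all genes. The lowest FDR belonged to IFITM1 (chr11:310041-315272), which stood at 29.5 and 12.9 CPM, below 71.9 and 39.3 CPM in WT (-1.38 ± 0.34, FDR = 0.0526). Both knockdown libraries were below both WT libraries. IFITM2 had 55.6 and 67.2 CPM against 112 and 78.3 CPM in WT (-0.63 ± 0.20, FDR = 0.116). IFITM3 had 97.5 and 155 CPM, which overlapped the 191 and 128 CPM of WT (-0.34 ± 0.22, FDR = 0.422). USP18 stood at 6.02 and 6.63 CPM, above WT (1.02 ± 0.31, FDR = 0.11).

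Values of the sensors after treatment with LNA-GapmeRs lay on both sides of WT. RIGI had 7.50 and 5.10 CPM, below WT (-0.58 ± 0.24, FDR = 0.217), EIF2AK2 had 133 and 106 CPM beside 165 and 132 CPM in WT (-0.32 ± 0.17, FDR = 0.322), and MAVS had 58.2 and 75.4 CPM beside 51.5 and 59.9 CPM (0.26 ± 0.18, FDR = 0.447). The antiviral effector IFIT1 had 15 and 7 counts against 42 and 20 counts in WT (FDR = 0.293). IFIT2 had 0 and 2 counts against 13 and 12 (FDR = 0.151), and PSMB9 2 and 1 counts against 21 and 5 (FDR = 0.202). HLA-B was also lower (-0.82 ± 0.30, FDR = 0.159). IRF3 went the other way, with 70.6 and 120 CPM beside 55.5 and 70.7 CPM in WT (0.60 ± 0.22, FDR = 0.167). OAS3 was at 1.53 and 1.46 CPM, between the WT values of 1.85 and 1.40 CPM (-0.12 ± 0.52, FDR = 0.822). IFI44, IFI44L, OAS1, OAS2 and OASL, genes that respond strongly to interferon in many cells, had 0 counts in both knockdown libraries.

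The knockdown replicates disagreed on several members. ISG15 stood at 4.33 CPM in replicate 1, below every other library, and at 19.5 CPM in replicate 2, above every other library. HLA-B had 4.82 and 9.54 CPM, HLA-C 82.8 and 154 CPM, TAP1 5.04 and 10.1 CPM and BST2 22.9 and 44.9 CPM, with the higher value in replicate 2 each time. IFITM1, RIGI and ZC3HAV1 had the higher value in replicate 1. The log2 fold change of ISG15 against WT was 0.79 without replicate 1 and -1.34 without replicate 2, and that of HLA-C 0.40 and -0.45. The difference between these libraries moved with the GC content of the exons. For the 11 constitutive members of at least 55% GC the median log2 difference, replicate 2 minus replicate 1, was 0.77, and 10 of them were above 0. For the 10 members below 45% GC it was -0.33, and 8 of them were below 0. Over the 29 constitutive members Spearman's rho was 0.67, and over 22744 genes of all kinds it was 0.55, given as a description of 2 libraries. In the 12704 genes of higher level, rho for replicate 2 minus replicate 1 was 0.72 in the knockdown and 0.42 in WT. It was 0.35 in HERVH element deleted and -0.13 in CHD7 knockout cells. The WT libraries, shared by all comparisons with WT, thus differed along GC content as well. The part of GC content in the knockdown values was not tested beyond the fits with a GC correction, in which 4 members passed FDR below 0.05 against WT.

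**Figure D4:**
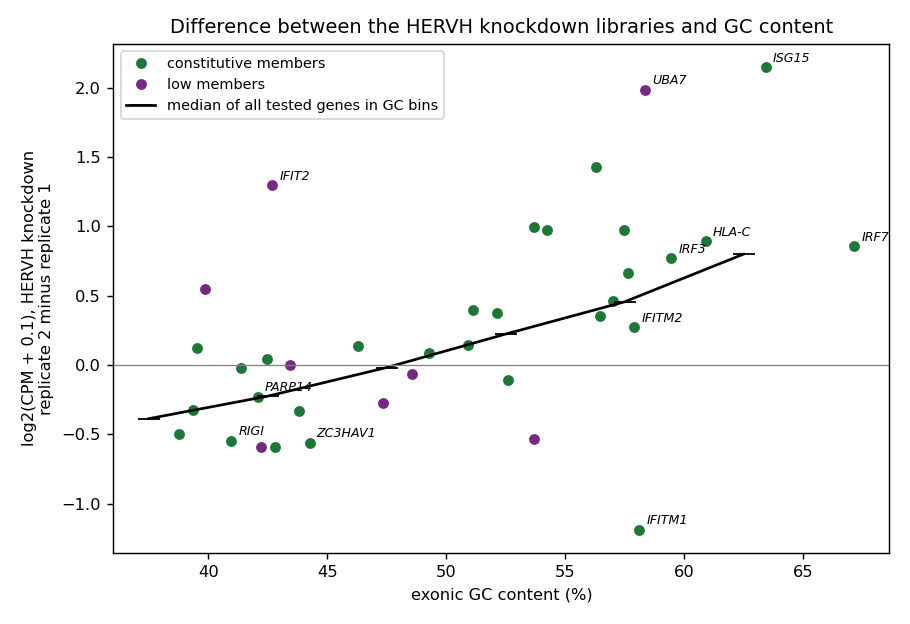
Difference in log2(CPM + 0.1) between HERVH knockdown replicate 2 and replicate 1 for the 37 tested members, against the GC content of their exons in percent. Green points are constitutive and violet points low members, and the black line joins the medians of all tested genes in GC bins, from -0.39 in the lowest to 0.80 in the highest bin. ISG15 is the highest point, and IFITM1 lies far below the line.

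In HERVH element deleted cells 34 of the 37 members had a negative log2 fold change, with a median of -0.27 against -0.02 for all genes. Leaving out a WT replicate gave -0.16 and -0.42. The signs of single members were less stable: 9 of the 37 changed sign without WT replicate 1 and 8 without WT replicate 2. With the GC correction 4 changed sign. The lowest unadjusted p was that of IRF7, with 3.85 and 4.26 CPM against 6.79 and 6.92 CPM in WT (-0.76 ± 0.30, unadjusted p = 0.0248 and FDR = 1 in the edgeR test). ISG15 had 5.98 and 5.93 CPM, below both WT libraries (-0.87 ± 0.46, FDR = 1). B2M had 19.9 and 19.0 CPM (-0.36 ± 0.19) and RIGI 8.25 and 7.61 CPM (-0.26 ± 0.24), each below both WT libraries and without passing the threshold. All comparisons with WT share the same 2 WT libraries.

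Direct comparisons between the altered conditions test whether these differ from each other. HERVH knockdown cells had the WT genotype and were treated for 24 h, whereas both other conditions were edited lines. In comparisons with the knockdown, treatment and editing cannot be told apart. HERVH knockdown differed from CHD7 knockout in 6 of 37 members (16.2%), all lower in the knockdown, while 9.44% of all genes passed FDR below 0.05 in this comparison. CHD7 knockout differed from HERVH element deleted cells in 4 members (10.8%), all higher in CHD7 knockout, against 2.66% of all genes. HERVH knockdown differed from HERVH element deleted cells in 0 of 37 members by the edgeR test, against 1.33% of all genes, and in 2 by DESeq2. At an unadjusted p below 0.05 in the edgeR test, 6 of 37 members passed, beside 19.1% of all genes. The first and second comparison share the CHD7 knockout libraries, and the 10 differences concern 7 genes.

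**Figure D5:**
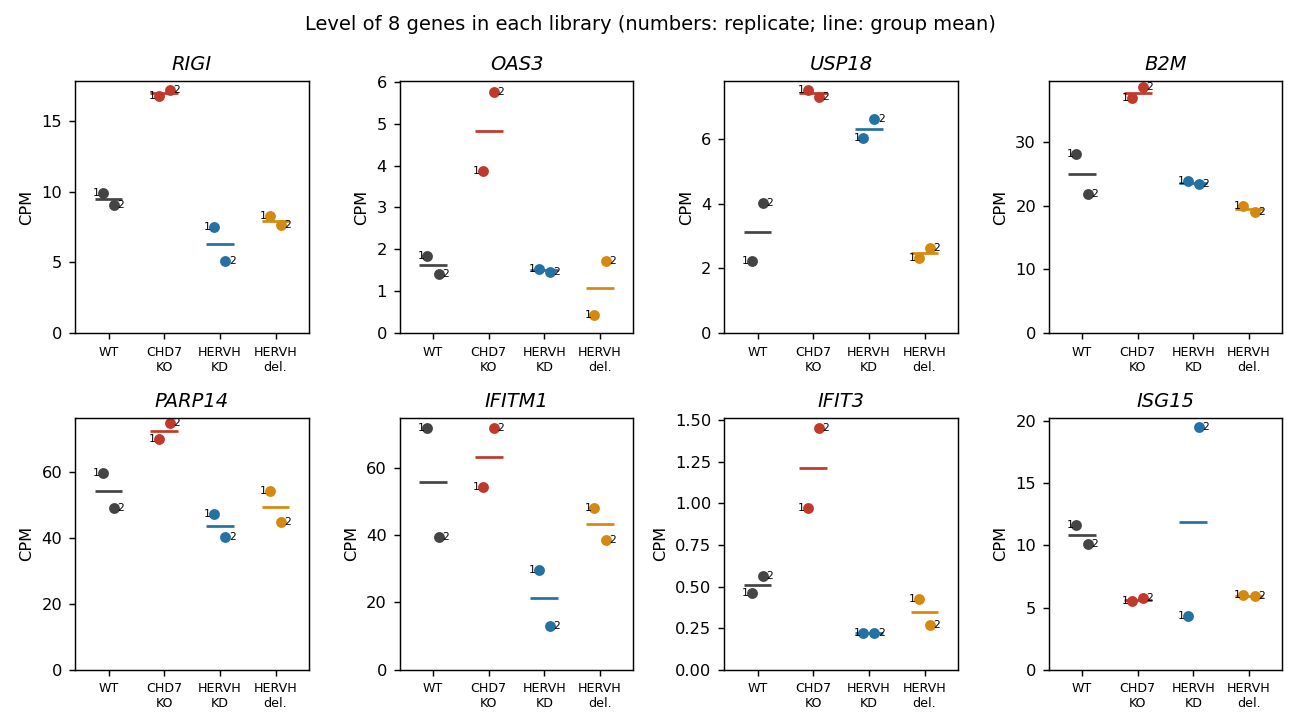
CPM of RIGI, OAS3, USP18, B2M, PARP14, IFITM1, IFIT3 and ISG15 in each library, with the replicate number beside each point and the mean of each group as a line. The first 7 differed in a direct comparison of altered conditions. CHD7 knockout libraries are the highest for RIGI, OAS3, USP18, B2M, PARP14 and IFIT3, and the knockdown libraries of ISG15 stand at 4.33 and 19.5 CPM.

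RIGI showed the clearest of these differences. Its level was 16.7 and 17.2 CPM in CHD7 knockout and 5.10 to 8.25 CPM in the 4 libraries of the HERVH conditions, without overlap. The log2 difference was -1.42 ± 0.24 (SE) between HERVH knockdown and CHD7 knockout (FDR = 0.00334) and 1.10 ± 0.24 between CHD7 knockout and HERVH element deleted cells (FDR = 0.0227). The first of these was the single member that also met the stricter limits, and it was kept whichever of the 4 libraries was left out, with an FDR of at most 0.0352. The second lost its call whichever of its 4 libraries was left out (FDR up to 0.309). Genes within 2 Mb of RIGI had median log2 differences of 0.18 and -0.08 in these comparisons.

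OAS3 was higher in CHD7 knockout cells than in both HERVH conditions. HERVH element deleted replicates had 0.427 and 1.73 CPM, or 10 and 32 counts, and the log2 difference was 2.19 ± 0.50 (FDR = 0.0323). In HERVH knockdown against CHD7 knockout cells it was -1.68 ± 0.50 (FDR = 0.0492). Each call survived the removal of a single library in 1 of 4 cases, the FDR reaching 0.316 and 0.266 in the others: the first was kept without HERVH element deleted replicate 2, the second without HERVH knockdown replicate 1. The light chain B2M differed by 0.96 ± 0.19 between CHD7 knockout and HERVH element deleted cells (FDR = 0.0131) and by -0.68 ± 0.19 between HERVH knockdown and CHD7 knockout cells (FDR = 0.0378), where its values in the knockdown were 23.8 and 23.5 CPM. For the heavy chain genes the log2 differences between CHD7 knockout and HERVH element deleted cells were 0.26 for HLA-B, -0.07 for HLA-C and -0.16 for HLA-E, with FDR values of 0.84 to 0.964. The first B2M call was lost whichever of its 4 libraries was left out (FDR up to 0.24), and the second without either CHD7 knockout replicate (up to 0.206) and in a fit of the 4 libraries compared (0.123).

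USP18 differed between CHD7 knockout and HERVH element deleted cells, with 7.53 and 7.32 CPM against 2.31 and 2.64 CPM (1.59 ± 0.32, FDR = 0.0146), a call lost whichever of the 4 libraries was left out (FDR up to 0.181). Between HERVH knockdown and HERVH element deleted cells its log2 difference was 1.35 ± 0.32 (FDR = 0.0555). The remaining differences lay between HERVH knockdown and CHD7 knockout cells. IFITM1 had 29.5 and 12.9 CPM against 54.3 and 71.8 CPM (-1.56 ± 0.34, FDR = 0.0125), and without CHD7 knockout replicate 2 its FDR was 0.114. Genes within 2 Mb of IFITM1 had a median of 0.54 in this comparison, opposite in sign. PARP14 (chr3:122399686-122449687) had 47.2 and 40.2 CPM against 70.2 and 74.8 CPM (-0.73 ± 0.18, FDR = 0.0225), and the call was lost without either CHD7 knockout replicate (FDR up to 0.159) and in a fit of the 4 libraries compared (0.0872). IFIT3 (chr10:91087064-91137230) had 4 and 3 counts against 21 and 27 counts (-2.43 ± 0.69, FDR = 0.0429), and this call was lost whichever of the 4 libraries was left out (FDR up to 0.241), in a fit of the 4 alone and with a replicate block (up to 0.0926). Exons of IFIT3 overlap LIPA on the opposite strand over 94 bases.

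Genes of the pathway outside the 43 were examined in 8 lists of 113 genes in all, of which 76 were tested. Of 22 interferon genes, 19 were at the floor and 11 of those had 0 counts in all libraries. IFNB1, the interferon first made on RNA sensing, had 2 counts in a CHD7 knockout library, 1 in a HERVH element deleted library and 0 in the other 6. IFNK was tested, with 14 to 37 counts, and was not called against WT. The receptors, by contrast, were expressed: IFNAR1 had 18.5 to 24.4 CPM, IFNAR2 6.57 to 8.85 CPM and IFNLR1 32.9 to 40.3 CPM. Of the 16 genes for receptors and their signalling chain, 15 were tested.

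Against WT, 4 genes of these lists passed FDR below 0.05 in CHD7 knockout cells, 1 in HERVH knockdown and 0 in HERVH element deleted cells. STAT6, which carries the signal of interleukin 4, rose to 60.1 and 60.3 CPM from 28.7 and 32.3 CPM (log2 fold change 0.98, FDR = 0.0129). TRIM22, an antiviral ubiquitin ligase, fell to 19.1 and 24.0 CPM from 63.6 and 41.7 CPM (-1.29, FDR = 0.0149). TLR5, the receptor of flagellin, rose by 1.73 on the log2 scale (FDR = 0.0157). TLR5 lies on chromosome 1 at 223282746, where genes within 2 Mb had a median log2 fold change of 0.34, so its neighbours were also high, and the part of this region in its value was not tested. None of the 43 genes lies there, as the 4 on chromosome 1 start at 79.1 Mb or below. JAK3, a kinase of cytokine receptors, fell to 6.68 and 7.36 CPM in the knockdown from 17.0 and 12.4 CPM (-1.07, FDR = 0.0366). The lists of MHC class I processing genes, adaptors and negative regulators had no member called against WT in edgeR's test. In HERVH knockdown against CHD7 knockout cells, where 9.44% of all genes passed, some genes of the same lists did. TAP2 (-1.04, FDR = 0.0163) and NLRC5 (-1.74, FDR = 0.0193) were lower in the knockdown. MYD88 (0.95, FDR = 0.00723) and TRIM27 (0.55, FDR = 0.0423) were higher.

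Markers of other cells were examined because interferon-stimulated and MHC genes are high in many of them. The 7 leukocyte markers summed to 15.6 to 17.8 CPM in WT and to 30.6 to 35.7 CPM in CHD7 knockout cells, most of it CD74. HLA-DRA, an MHC class II chain, had 97 and 79 counts in CHD7 knockout and 7 and 4 counts in WT cells (log2 fold change 4.06, FDR = 0.00256), while PTPRC, the defining marker of leukocytes, had at most 7 counts in a library and CD3E at most 2. CD74, the class II invariant chain, had 25.6 and 30.4 CPM in CHD7 knockout and 16.8 and 14.9 CPM in WT cells (FDR = 0.0573). Both genes were also called in the direct comparisons that gave the calls of RIGI and B2M, with FDR = 0.00317 for CD74 and 0.00112 for HLA-DRA in CHD7 knockout against HERVH element deleted cells, and 0.00123 and 0.000504 in HERVH knockdown against CHD7 knockout cells. The part of such cells in the values of the members was not tested. In the knockdown, fibroblast markers summed to 94.9 and 270 CPM, beside 68.4 to 84.3 CPM in WT, 121 to 124 CPM in CHD7 knockout and 54.8 to 57.8 CPM in HERVH element deleted cells. Most of each sum was COL1A1, a collagen chain, with 93.6 and 269 CPM in the knockdown. COL3A1, DCN and LUM had 0 counts in both knockdown libraries, and PDGFRA had 24 and 6 counts beside 11 and 20 in WT. No marker of this list was called against WT, and COL1A1 was called in the knockdown against HERVH element deleted cells (1.72, FDR = 0.0256). Markers of differentiated germ layers summed to 2.54 to 5.17 CPM and those of trophoblast to 2.85 to 8.18 CPM across libraries, with none called. Of the endothelial markers, TEK fell by 3.34 on the log2 scale in CHD7 knockout against WT cells (FDR = 3.2e-06), while KDR had 256 and 223 CPM against 182 and 135 CPM in WT (0.60, FDR = 0.0966) and CDH5 at most 1.17 CPM in any library. KDR was called in CHD7 knockout against HERVH element deleted cells (0.90, FDR = 0.00854) and in HERVH knockdown against CHD7 knockout cells (-0.79, FDR = 0.00976).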

How the data were processed

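Total RNA of H9 cells was rRNA depleted and sequenced in 8 libraries, which were strand-specific according to the study. Reads were aligned by the authors (STAR, hg19, Ensembl genes) and tallied by HTSeq-count. The deposited files hold these raw read counts, and tool versions and strand setting are not given in the sources used here. The 5 summary lines (34.9% to 42.5% without a feature) were left out. Genes were named and placed with GENCODE on GRCh37 (55538 of 57773). With R 4.3.3, edgeR 4.0.16, limma 3.58.1 and DESeq2 1.42.0, libraries were scaled by TMM, filtered by filterByExpr (23474 genes) and fitted by the quasi-likelihood test with group as the sole factor (4 residual degrees of freedom), with Benjamini-Hochberg adjustment over all genes. Scripts were tested on simulated data. Python 3.11.15 with pandas 2.3.3, numpy 2.4.6, scipy 1.17.1 and matplotlib 3.10.9 made level classes, RPKM, motif searches and figures. Every member is named, and those called in any contrast are given in each library; from the wider lists, genes called against WT are named, except that some genes are not reported here. IFNAR1, IFNAR2, IFNLR1, IFNB1, IFNK, TAP2, NLRC5, MYD88, TRIM27, CD74, PTPRC, CD3E, COL1A1, KDR and CDH5, and uncalled members given by library, were chosen after their values were seen. The members and lists were chosen with earlier results of these data known. The alternatives were RLE scaling, DESeq2, the exact test, fits of 4 libraries, other filters, a replicate block, a GC correction and each replicate left out.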

Additional observations from a re-analysis of the deposited data

Results flagged for a closer look

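Differences between altered conditions in the direct comparisons of the edgeR fit led to a closer look at 10 results on 7 genes. HERVH knockdown was lower than CHD7 knockout for RIGI (log2 difference -1.42), IFITM1 (-1.56), PARP14 (-0.73), B2M (-0.68), IFIT3 (-2.43) and OAS3 (-1.68). CHD7 knockout was higher than HERVH element deleted cells for OAS3 (2.19), RIGI (1.10), USP18 (1.59) and B2M (0.96). Both sets share the CHD7 knockout libraries, so they are not independent of each other. None of the 7 genes passed FDR below 0.05 against WT in edgeR's quasi-likelihood fit of all 8 libraries. The lowest values there were 0.0526 for IFITM1 in HERVH knockdown and 0.0632 for USP18 in CHD7 knockout cells. In the fit of the 4 libraries compared, OAS3, RIGI, USP18 and B2M passed in CHD7 knockout against WT.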

How the results depend on the processing

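Of the members, 0 were called at FDR below 0.05 in HERVH element deleted against WT cells under every alternative run. The other counts moved. For CHD7 knockout against WT (0 by the quasi-likelihood test), DESeq2 gave 3, the exact test 4, the 4 libraries compared 6, no filter 3, the replicate block 1, the GC correction 4 and the GC correction with the block 3; under the stricter limits the exact test and the 4 libraries gave 1 each. For HERVH knockdown against WT (0), RLE scaling, DESeq2, the exact test and the block gave 1 each, no filter 2, the GC correction 4 and the GC correction with the block 4; under the stricter limits the exact test, no filter and the GC correction with the block gave 1 each. For HERVH knockdown against HERVH element deleted cells (0), DESeq2, the exact test and the GC correction gave 2 each, no filter 5, the block 1 and the GC correction with the block 3. For HERVH knockdown against CHD7 knockout (6), the exact test gave 12, the 4 libraries 3, no filter 11 and the GC correction 12. For CHD7 knockout against HERVH element deleted cells (4), the 4 libraries gave 12, no filter 7, the GC correction 7 and the GC correction with the block 7. The causes were not tested. The shares of all genes called under these alternatives are not given, and whether the counts moved with calls over all genes was not tested.

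With each replicate left out in turn, counts at FDR below 0.05 were 0 for CHD7 knockout against WT, 0 to 8 for HERVH knockdown against WT (0 to 2 with the stricter limits), 0 to 10 for HERVH knockdown against HERVH element deleted cells, 1 to 14 for HERVH knockdown against CHD7 knockout and 0 to 1 for CHD7 knockout against HERVH element deleted cells. Medians against WT ranged from -0.12 to 0.35 in CHD7 knockout, -0.30 to -0.0071 in HERVH knockdown and -0.42 to -0.16 in HERVH element deleted cells. In HERVH knockdown against WT without knockdown replicate 2, ISG15 (-1.34) and HLA-C (-0.45) reversed from 0.12 and 0.07. Over the left-out replicates they ranged from -1.34 to 0.79 and from -0.45 to 0.40. The lone sample was assumed to vary like the other groups. The shares of all genes called in these fits are not given, so the counts are not read as results about the members.

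The labels do not say what a shared replicate number stands for. Correlations of the deviations of same-numbered samples from group means were 0.286 to 0.427 among the groups other than CHD7 knockout and -0.233 to -0.116 for pairs with it. Under the block, 1, 1 and 0 members were called against WT. With 2 replicates a group, genes of few counts had intervals of several-fold, and genes at the floor gave no test.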
